A study of Mus musculus with 14 samples.

Results

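Hypoxia response genes are described here in mouse pancreatic β-cells and islets through 10 genes: Hif1a, Epas1, Egln1, Egln3, Vegfa, Adm, Bnip3, Pdk1, Ndrg1 and Ankrd37. They were chosen by symbol, and each of the 10 matched 1 of the 37310 Ensembl gene rows in each of 3 tables of raw gene counts. The first table holds β-cells of wild-type C57BL/6 mice, adult at postnatal day 45 (3 libraries) and neonatal at day 6 (3 libraries). The second holds whole islets of mice 8 weeks old, 2 libraries with the genotype TSC1 KO, described as a β-cell knockout, and 2 with the genotype control and the prefix RC. The third holds whole islets of mice 4 weeks old, 2 libraries with the genotype Db and 2 with the genotype control and the prefix BKS. The strain of all groups is labelled C57BL/6, the labels name no agent for any group, and the promoter that drives the Tsc1 deletion, the meaning of RC and the number of animals behind a library are not given in the sources used here. Db is read here only as a label, and p-values measure the spread between libraries, which may be technical.

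Cells sense oxygen through prolyl hydroxylases, which mark the α subunits of the hypoxia-inducible factors (HIF) for capture by the von Hippel-Lindau protein and for degradation when oxygen is plentiful. When oxygen is scarce the α subunits escape, pair with ARNT and bind short DNA elements near genes of blood supply, glucose use and mitochondrial turnover. HIF α subunits are controlled mainly at the protein level, so the transcript levels given here are not a measure of HIF activity. In β-cells, insulin release is coupled to mitochondrial glucose oxidation, and their VEGF-A maintains the dense capillary bed of the islet.

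The core of the hypoxia response element is 5 bases long, ACGTG or GCGTG. Windows from 250 bases before to 50 bases after the annotated start were searched for both cores on both strands in RefSeq sequence of the build GRCm38.p6. The core appears on the opposite strand as CACGT or CACGC, and the palindrome CACGTG counts as a match on each strand, 1 base apart. A window was at hand for 8 of the 10 genes, all but Epas1 and Ndrg1, and each of the 8 genes had a core in at least 1 window. Pdk1 and Vegfa each have 2 windows, of which 1 has no match, so 8 of 10 windows held a core. Vegfa lies on the minus strand, and its more upstream window (chr17:46032378-46032627 before the start) is the one with no match. The Vegfa matches lie at a start further downstream (chr17:46025164-46025413). Of all 32851 windows in the same set, 43.8% held a core, 19.6% the form ACGTG and 32.4% the form GCGTG. Of the 27025 genes in that set, 46.7% had a core in at least 1 window, so these letters are common near gene starts. The 250 bases before the start are printed for the genes with the largest fold decrease (Ankrd37) and the largest fold increase (Egln3) past the test below and for the gene called between the ages of β-cells (Bnip3). Cores are in capitals. All 3 genes lie on the minus strand, and each sequence is read 5′ to 3′ along it.
Ankrd37, chr8:45999851-46000100: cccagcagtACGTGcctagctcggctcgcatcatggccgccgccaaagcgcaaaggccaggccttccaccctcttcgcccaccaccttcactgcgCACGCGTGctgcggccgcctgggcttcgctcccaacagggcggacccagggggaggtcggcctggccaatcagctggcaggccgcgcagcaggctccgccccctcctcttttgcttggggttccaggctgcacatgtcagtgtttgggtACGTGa
Egln3, chr12:54203875-54204124: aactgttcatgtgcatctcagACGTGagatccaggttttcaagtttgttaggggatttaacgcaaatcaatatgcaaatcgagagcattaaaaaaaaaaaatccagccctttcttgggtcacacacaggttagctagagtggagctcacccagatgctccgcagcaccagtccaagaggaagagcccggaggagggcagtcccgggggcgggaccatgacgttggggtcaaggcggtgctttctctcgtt
Bnip3, chr7:138909507-138909756: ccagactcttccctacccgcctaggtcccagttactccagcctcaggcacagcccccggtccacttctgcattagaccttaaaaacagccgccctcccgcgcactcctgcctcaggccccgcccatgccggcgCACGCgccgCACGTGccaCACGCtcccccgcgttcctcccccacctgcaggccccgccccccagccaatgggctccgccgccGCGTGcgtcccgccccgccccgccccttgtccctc
Ankrd37 has 4 matches, the nearest of which begins 6 bases before the start. Bnip3 has 5 matches between 117 and 35 bases before it, a pair of which is 1 CACGTG palindrome, and Egln3 has 1 match at 229 bases. A match is a description of the letters and does not show that a factor binds there.

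**Figure D1:**
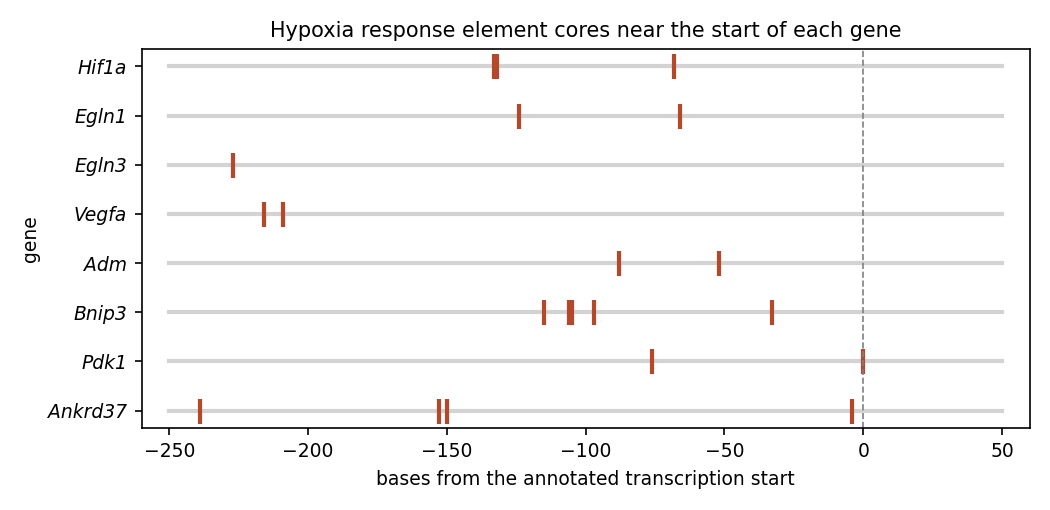
Matches to the core ACGTG or GCGTG, on either strand, in windows around the annotated start of 8 genes (RefSeq, GRCm38.p6). The horizontal axis gives bases from the start, grey lines are the windows searched and each tick is the middle base of a match. Egln3 has 1 match and Bnip3 has 5. The Vegfa ticks are in the window of its more downstream start, and the window of its upstream start has no match.

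Gene counts per library ranged from 3507929 in TSC1 KO replicate 2 to 17688772 in Db replicate 2, so the TSC1 KO libraries carry the largest counting error. Levels are CPM (counts scaled to a common library total) after scaling with trimmed means (TMM), and levels of different genes are compared only per kilobase of exon. Where groups are said not to overlap, this describes the libraries only, because the share of all genes without overlap was not counted. Of the neonatal columns, 2 have the same heading, replicate 3, and are called 3a and 3b. No column is headed replicate 2, so neither could be tied to a labelled sample. The pair differed by a chi-square of 81.3 per gene (15472 genes), more than other neonatal pairs (51.7 and 71.5), so they were counted as separate libraries, but whether they come from separate mice is not given. Tsc1 had 31.0 and 34.5 CPM in TSC1 KO islets and 25.1 and 54.1 CPM in RC control islets, so it did not separate the groups labelled by it, although counts over all exons of Tsc1 in mixed islet cells need not show a partial deletion in β-cells. Lepr, the leptin receptor gene mutated in mice known as db, had 1 and 4 counts in Db islets and 11 and 2 in BKS control islets, too few to test. All 10 β-cell markers were detected in every library. Their summed level was 12860 and 13360 CPM in TSC1 KO islets against 235000 and 265500 CPM in RC control islets, and 494600 and 427700 CPM in Db islets against 599900 and 920500 CPM in BKS control islets. Mitochondrially encoded genes took 39.8% and 46.8% of counts in TSC1 KO islets and 12.4% and 9.05% in RC control islets.

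Levels per kilobase put Vegfa, which encodes the main angiogenic factor of islets, first in 5 of the 6 groups. In adult β-cells Vegfa averaged 131 ± 4.40 CPM per kilobase (SD, n = 3), followed by Ndrg1 at 33.5 ± 3.17, Hif1a at 25.4 ± 3.38 and Bnip3 at 19.2 ± 4.42 CPM per kilobase. Ndrg1 did not overlap Hif1a in these libraries, whereas Hif1a (21.8 to 28.6) and Bnip3 (14.4 to 23.1) did. In neonatal β-cells Vegfa averaged 170 ± 30.04 CPM per kilobase (SD, n = 3), and Ndrg1 at 25.8 ± 2.37 could not be separated from Hif1a at 25.6 ± 2.76. In TSC1 KO islets the order changed at the top, with Epas1 at 116 ± 38.0, Vegfa at 35.9 ± 0.418 and Ndrg1 at 33.2 ± 3.10 CPM per kilobase (SD, n = 2). In RC control islets Vegfa had 67.2 ± 15.5 and Epas1 59.4 ± 1.12 CPM per kilobase (SD, n = 2), and their libraries overlapped. Db islets had Vegfa at 37.6 ± 0.422 and Epas1 at 17.9 ± 1.81, and BKS control islets had Vegfa at 63.1 ± 7.60 and Epas1 at 15.3 ± 3.51 CPM per kilobase (SD, n = 2 each). Egln3, Adm and Pdk1 lay at or below 5.71 CPM per kilobase in every group. Epas1, a gene known for high expression in endothelial cells, was near 0 in the β-cells and far higher in the islets, at 0.771 ± 0.863 in adult and 0.604 ± 0.245 CPM per kilobase in neonatal β-cells. Summed levels of 10 endothelial markers were 4.85 to 24.8 CPM in adult and 2.86 to 14.6 CPM in neonatal β-cells, and at least 716 CPM in every islet library. β-cells and islets were not compared by a test, because they come from different tables and ages.

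**Figure D2:**
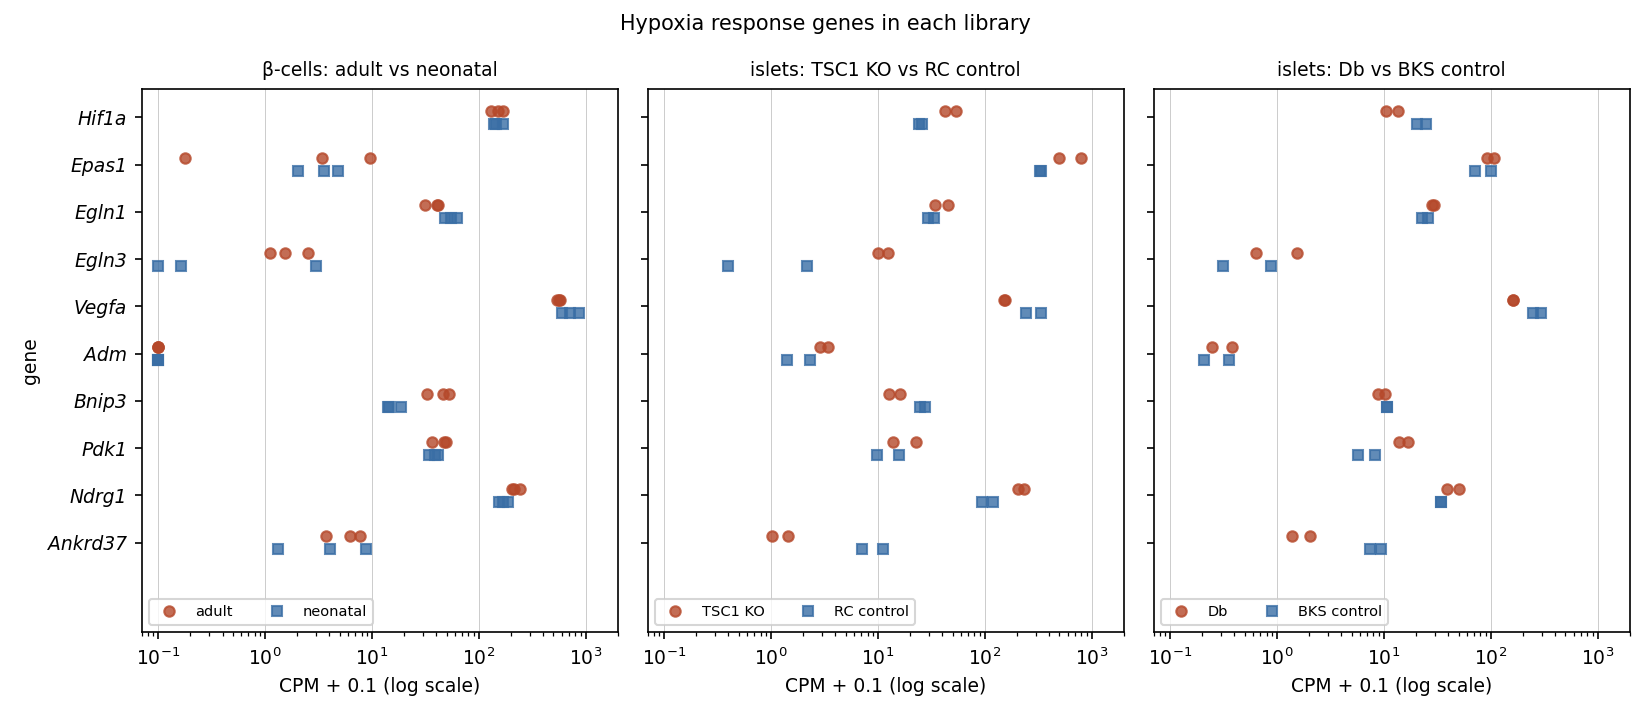
CPM of the 10 genes in each library, with 0.1 added so that zeros can be drawn, on a log axis. Circles are adult, TSC1 KO and Db libraries and squares are neonatal, RC control and BKS control libraries. Bnip3 of adult and neonatal β-cells, Ankrd37 of both islet tables and Hif1a of both islet tables do not overlap between groups. Other genes do not either, such as Vegfa in each panel, and the share over all genes was not counted.

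In adult against neonatal β-cells, which asks how transcripts change as β-cells mature, Bnip3 was the one hypoxia response gene past the test. BNIP3 sits in the outer mitochondrial membrane and recruits the autophagy machinery to mitochondria. Its transcript had 52.3, 45.8 and 32.6 CPM in adult β-cells, against 14.4, 14.1 and 18.4 CPM in neonatal β-cells. The lowest adult library was above the highest neonatal one. Summed β-cell markers were 55080 to 90900 CPM in adult and 24400 to 33550 CPM in neonatal β-cells. Ins2 was the largest part of each sum, at 32460 to 53440 CPM in adult and 11730 to 18200 CPM in neonatal β-cells. Of the 10 β-cell markers, edgeR called 5 higher and 0 lower, and 5 were not called. Pdx1 had 373 to 446 CPM in adult and 433 to 567 CPM in neonatal β-cells. Summed duct markers were 240 to 277 CPM in adult and 433 to 540 CPM in neonatal β-cells. Krt7 gave most of each duct sum, at 148 to 172 CPM in adult and 281 to 430 CPM in neonatal β-cells. Mesenchymal sums were 10.7 to 41.4 CPM in adult β-cells and 19.25, 8.27 and 209 CPM in neonatal replicates 1, 3a and 3b. The part of these markers in the result was not tested. Bnip3 was 2.78-fold higher in adult β-cells (log2 fold change 1.48 ± 0.32 SE, n = 3 each, adjusted p = 0.00958 in edgeR's quasi-likelihood test with Benjamini-Hochberg adjustment). The call was lost without adult replicate 1 (edgeR adjusted p = 0.0831) and without adult replicate 2 (0.0577), and it held without neonatal replicate 3a or 3b. Of the 10 genes, 9 passed the filter on low counts, and of these 1 was called higher and 0 lower by edgeR, against a background of 3.38% of 14304 genes called higher and 3.60% called lower. At an unadjusted p under 0.05, 2 were higher and 2 lower, and DESeq2 and limma-voom each called 1 higher and 0 lower. When only library size was used for scaling, the split over all genes was 321 higher and 872 lower, against 484 and 515 with TMM. The median log2 fold change was 0.31 over the 9 genes and -0.03 over all genes tested.

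The HIF α subunits did not pass the test between the ages. Hif1a, the broadly expressed α subunit, had 152, 169 and 129 CPM in adult β-cells and 143, 140 and 169 CPM in neonatal β-cells. These ranges overlap almost completely, and the log2 fold change was -0.01 ± 0.18 SE (adjusted p = 0.987 by edgeR). Epas1, which encodes HIF-2α, had 9.57, 3.28 and 0.0800 CPM in adult and 1.95, 3.50 and 4.69 CPM in neonatal β-cells, the last adult value being 1 count. Endothelial marker sums in the adult libraries were 24.8, 4.85 and 9.52 CPM in the same order, and their part in the Epas1 values was not tested.

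The oxygen sensors did not pass between the ages either. Egln1 encodes PHD2, the prolyl hydroxylase that sets HIF levels in most tissues. It had 41.3, 31.3 and 40.2 CPM in adult β-cells against 48.5, 62.1 and 54.8 CPM in neonatal β-cells. All adult libraries were below all neonatal ones, but the difference did not pass the test (log2 fold change -0.55 ± 0.25 SE, adjusted p = 0.225 by edgeR). Egln3 encodes PHD3, itself a HIF target, and had 1.00, 2.43 and 1.44 CPM in adult β-cells against 0.0651, 0 and 2.92 CPM in neonatal β-cells. Its neonatal reads came almost entirely from replicate 3b (48 counts), the neonatal library with the highest mesenchymal sum given above, whose part was not tested. Egln3 did not pass (adjusted p = 0.890 by edgeR).

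Among the secreted factors, Vegfa had 564, 579 and 541 CPM in adult β-cells against 714, 606 and 862 CPM in neonatal β-cells. Every adult library was below every neonatal one. The log2 fold change was -0.37 ± 0.15 SE, which did not pass (adjusted p = 0.169 by edgeR). It passed with library size as the only scaling (0.0439) and without neonatal replicate 3a (0.0337), and edgeR adjusted p reached 0.473 without neonatal replicate 3b. Adm, which encodes the vasodilator peptide adrenomedullin, had 0 counts in all 6 β-cell libraries, which allows at most 0.183 to 0.240 CPM per library at 3 counts.

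The metabolic and stress targets apart from Bnip3 did not pass. Pdk1, a kinase that shuts pyruvate dehydrogenase and so limits entry of pyruvate into the TCA cycle, had 47.3, 49.5 and 36.5 CPM in adult and 33.8, 41.0 and 38.7 CPM in neonatal β-cells (adjusted p = 0.703 by edgeR). Ndrg1, a stress-induced gene of growth and differentiation, had 205, 212 and 244 CPM in adult and 186, 155 and 169 CPM in neonatal β-cells. Its groups did not overlap, and the log2 fold change of 0.37 ± 0.17 SE did not pass (adjusted p = 0.211 by edgeR). Ankrd37, an ankyrin repeat protein gene known as a HIF-1 target, had 7.56, 3.64 and 6.08 CPM in adult and 3.97, 8.74 and 1.22 CPM in neonatal β-cells, with neonatal libraries on both sides of the adult ones.

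**Figure D3:**
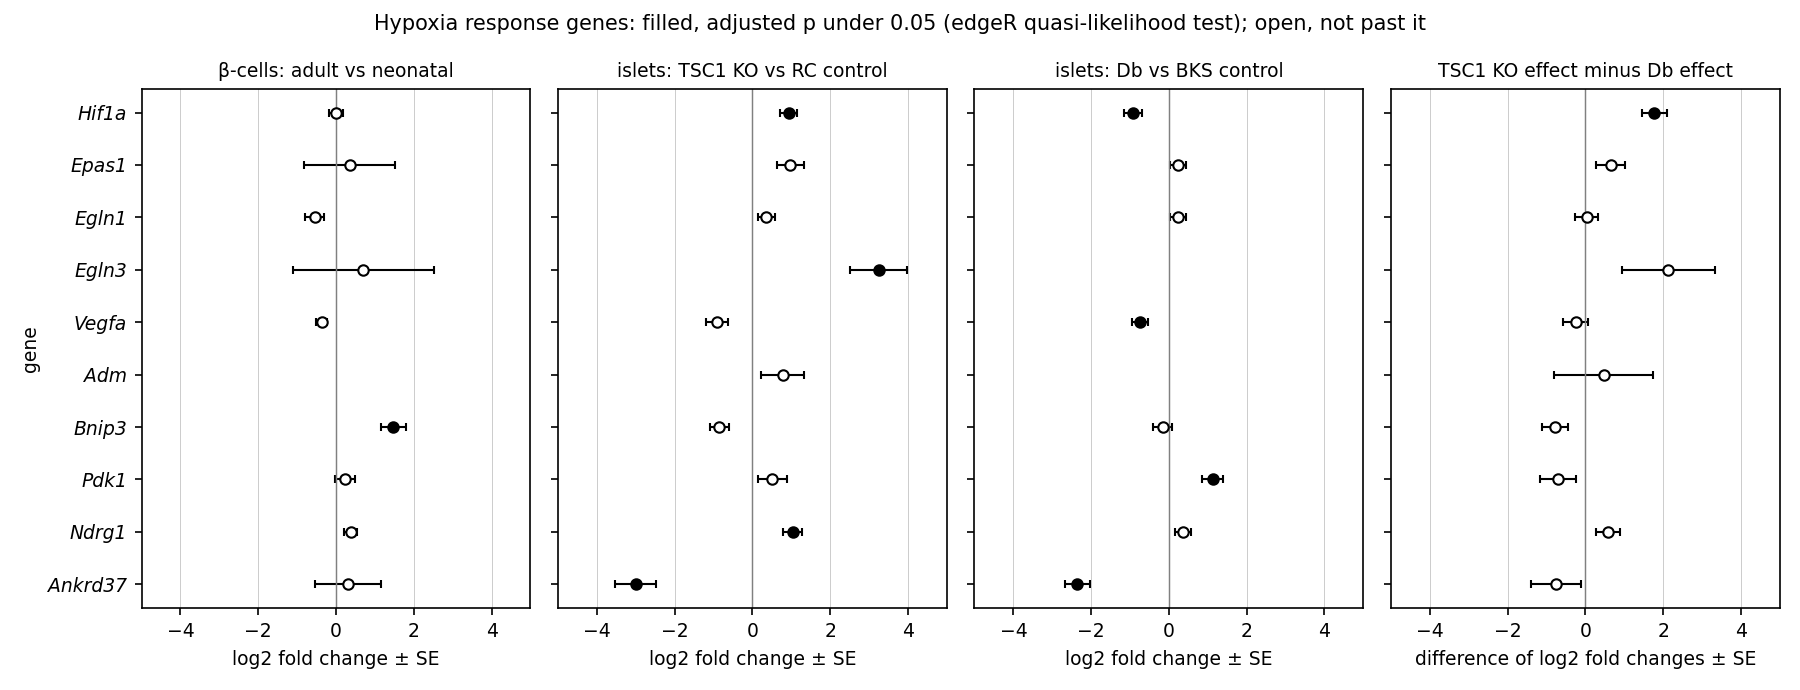
Log2 fold changes ± SE of the 10 genes in the 3 comparisons (first group over second), and the difference between the TSC1 KO and Db effects. Filled points have an adjusted p under 0.05 in edgeR's quasi-likelihood test and open points do not, and genes not tested have no point. Hif1a is filled to the right of 0 for TSC1 KO and to the left of 0 for Db, and Ankrd37 is filled to the left of 0 for both.

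Other genes of the pathway showed few calls between the ages, where 3.38% of all genes were called higher and 3.60% lower. Of 13 oxygen sensing genes, 1 rose and 12 were not called in edgeR's test. It was Cited2, whose protein competes with HIF α subunits for the coactivators CBP and p300, at 97.1, 85.1 and 108 CPM in adult against 58.9, 25.6 and 30.1 CPM in neonatal β-cells (log2 fold change 1.34 ± 0.29 SE, adjusted p = 0.00989 by edgeR). Its call was lost without adult replicate 3 (0.0548). Vhl, Egln2, Hif1an and Arnt, for the von Hippel-Lindau protein, the prolyl hydroxylase PHD1, the asparaginyl hydroxylase FIH and the partner of the α subunits, had log2 fold changes of -0.43 ± 0.36, -0.03 ± 0.21, -0.35 ± 0.24 and -0.27 ± 0.23 (SE) and were not called.

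Of 20 other HIF target genes tested, 3 fell and 0 rose by edgeR (1 rose at an unadjusted p under 0.05, and DESeq2 and limma-voom called 0 higher). They were the transferrin receptor Tfrc (-0.84 ± 0.18), the lysyl oxidase Loxl2 (-0.80 ± 0.18) and the repressor Bhlhe40 (-1.26 ± 0.36; log2 fold changes ± SE, adjusted p = 0.00827, 0.0117 and 0.0482 by edgeR). Each lost its call without at least 1 library: Tfrc without adult replicate 1 (0.0598) or 3 (0.0501), Loxl2 without any 1 adult library (0.0616 to 0.0754) and Bhlhe40 without any 1 library except adult replicate 1 (0.0508 to 0.157). Slc2a1, the glucose transporter GLUT1, had 33.0, 42.6 and 32.2 CPM in adult and 23.4, 34.5 and 63.6 CPM in neonatal β-cells and was not called. Neither were the mitophagy receptor Bnip3l (0.31 ± 0.27), the mTORC1 inhibitor Ddit4 (0.10 ± 0.24) or the collagen prolyl hydroxylase subunit P4ha1 (0.44 ± 0.23; log2 fold changes ± SE).

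For 11 glycolytic HIF targets, edgeR called 0, with 2 higher and 1 lower at an unadjusted p under 0.05, and DESeq2 called 0 and limma-voom 1 higher. Of 3 NDRG relatives, 1 rose, Ndrg3, at 206, 224 and 241 CPM in adult against 137, 120 and 130 CPM in neonatal β-cells (log2 fold change 0.79 ± 0.17 SE, adjusted p = 0.00845 by edgeR). It lost its call without adult replicate 2 (0.0526) or 3 (0.0628). The 6 VEGF genes, 3 adrenomedullin receptor genes and 7 genes of pyruvate dehydrogenase control that were tested had 0 calls by edgeR, DESeq2 and limma-voom and 0 at an unadjusted p under 0.05. Those include the VEGF receptors Flt1 (-0.75 ± 1.59) and Kdr (0.32 ± 1.63) and the kinases Pdk2 (-0.17 ± 0.48) and Pdk4 (-0.85 ± 1.42; log2 fold changes ± SE).

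The TSC1 KO label describes a knockout in β-cells, which by design removes a brake on mTORC1 there and not in other islet cells. Tsc1 levels, given above, did not separate the groups. In islets with this label, 3 of the 10 genes were higher (Egln3, Ndrg1 and Hif1a) and 1 was lower (Ankrd37) than in RC control islets, in edgeR's test. Against this, 8.63% of 14515 genes were called higher and 10.0% lower. All 10 genes passed the filter on low counts, with a median log2 fold change of 0.65, against -0.00306 over all genes tested. When only library size was used for scaling, the split of the 10 genes was 1 higher and 3 lower, and that of all genes 756 higher and 1961 lower, against 1252 and 1451 with TMM. Every call in this comparison needed both knockout libraries. With TSC1 KO replicate 1 or 2 left out, edgeR called 0 genes in each case, with 3535 and 3061 at an unadjusted p under 0.05. The islets are bulk samples, in which fewer cells of a type and less RNA per cell cannot be told apart. Of 10 β-cell markers 9 were lower, and their summed level is given above. Of 10 endothelial markers 5 were called higher, and their sum was 5303 and 4063 CPM in TSC1 KO islets against 2323 and 2134 CPM in RC control islets, with no marker at 0. Summed duct markers were 2158 and 2927 CPM in TSC1 KO islets against 933 and 283 CPM in RC control islets, with 2 of 7 markers called higher and none at 0. Spp1 gave most of the knockout duct sums, at 1474 and 1971 CPM in TSC1 KO islets against 433 and 49.4 CPM in RC control islets. Krt7 went the other way, at 132 and 166 CPM in TSC1 KO islets against 191.5 and 192.4 CPM in RC control islets. Summed stomach mucosa markers were 190 and 320 CPM in TSC1 KO islets against 19.8 and 10.9 CPM in RC control islets, with all 4 tested of 8 called higher and at least 4 of the 8 at 0 in each library. Summed markers of other endocrine cells were 7856 and 3154 CPM in TSC1 KO islets against 33940 and 28260 CPM in RC control islets, with 6 of 8 lower and 1 higher. Mesenchymal sums were 1377 and 5071 CPM in TSC1 KO islets against 1310 and 988 CPM in RC control islets, so that TSC1 KO replicate 2 stood apart, and edgeR, DESeq2 and limma-voom called 0 of 10 (3 higher at an unadjusted p under 0.05). The part of these cell types in the results below was not tested.

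Of the HIF α genes, Hif1a passed the test in TSC1 KO islets and Epas1 did not. Hif1a had 41.9 and 53.2 CPM in TSC1 KO islets against 25.6 and 24.1 CPM in RC control islets, and both knockout libraries were above both controls. It was 1.91-fold higher (log2 fold change 0.93 ± 0.21 SE, n = 2 each, adjusted p = 0.0354 by edgeR). The call was narrow: it was lost with DESeq2 (0.0548), with library size only (0.0788) and without RC control replicate 2 (0.0501), and edgeR adjusted p over all alternatives ran from 0.0176 to 0.241. Hif1a overlaps Gm15283 on the other strand, so its count is uncertain without the strand setting. Gm15283 had 3.26 and 6.35 CPM in TSC1 KO islets against 1.74 and 3.53 CPM in RC control islets and was not called (adjusted p = 0.356 by edgeR). Epas1 had 800 and 499 CPM in TSC1 KO islets against 327 and 336 CPM in RC control islets. The difference of 0.97 ± 0.35 SE on the log2 scale did not pass (adjusted p = 0.102 by edgeR; 0.0300 with DESeq2 to 0.445 without TSC1 KO replicate 1). Endothelial sums, given above, were also higher in both knockout libraries, with 5 of 10 markers called higher and 5 not called. Their part in the Epas1 values was not tested.

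Of the oxygen sensors, Egln3 showed the largest fold increase among the 10 genes in this comparison. It had 10.0 and 12.4 CPM (43 and 37 counts) in TSC1 KO islets against 2.05 and 0.294 CPM (13 and 2 counts) in RC control islets. The groups did not overlap, and the fold of 9.47 rests on few control reads (log2 fold change 3.24 ± 0.73 SE, adjusted p = 0.0347 by edgeR). The log2 fold change was 5.12 without RC control replicate 1 and 2.42 without RC control replicate 2. Egln1 had 45.7 and 34.4 CPM in TSC1 KO islets against 29.5 and 33.1 CPM in RC control islets and was not called (log2 fold change 0.36 ± 0.22 SE, adjusted p = 0.297 by edgeR).

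The secreted factors did not pass. Vegfa had 153 and 155 CPM in TSC1 KO islets against 241 and 335 CPM in RC control islets, with no overlap. The log2 fold change of -0.90 ± 0.28 SE had an edgeR adjusted p of 0.0714. It passed with DESeq2 (0.0305), library size only (0.0470), no filter (0.0417) and without RC control replicate 1 (0.0125), and reached 0.332 without TSC1 KO replicate 2. Adm had 2.80 and 3.34 CPM in TSC1 KO islets against 2.21 and 1.32 CPM in RC control islets, which are between 9 and 14 counts per library (adjusted p = 0.351 by edgeR).

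Of the metabolic and stress targets, Ankrd37 was lower and Ndrg1 higher in TSC1 KO islets. Ankrd37 had 4 counts in each TSC1 KO library, or 0.932 and 1.34 CPM, against 44 and 76 counts, or 6.95 and 11.2 CPM, in RC control islets. Both knockout values were far below both controls, and Ankrd37 was 8.03-fold lower (log2 fold change -3.00 ± 0.52 SE, adjusted p = 0.0195 by edgeR). Ankrd37 kept its call under every alternative that kept both knockout libraries. In the GENCODE annotation its exons overlap those of Ufsp2 and Lrp2bp on the other strand, and the strand setting of the counting is not given, so its count is uncertain. Ufsp2 itself was lower, with 17.9 and 15.7 CPM in TSC1 KO islets and 36.0 and 33.2 CPM in RC control islets (log2 fold change -1.03 ± 0.21 SE, adjusted p = 0.0270 by edgeR). Lrp2bp had 3 and 0 counts in TSC1 KO islets against 11 and 29 counts in RC control islets, too few to test.

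Ndrg1 had 233 and 204 CPM in TSC1 KO islets against 118 and 95.05 CPM in RC control islets. The knockout libraries were both above the controls, by 2.05-fold (log2 fold change 1.04 ± 0.25 SE, adjusted p = 0.0386 by edgeR), but with library size only the call was lost (0.0985). The gene Gm17035, which overlaps Ndrg1 on the other strand, had 56.9 and 45.2 CPM in TSC1 KO islets against 26.7 and 23.8 CPM in RC control islets (adjusted p = 0.0296 by edgeR). Gm2895, which also overlaps Ndrg1 there, had 8.39 and 7.36 CPM in TSC1 KO islets against 1.42 and 3.24 CPM in RC control islets. Reads of these genes and Ndrg1 cannot be told apart without the strand setting. Bnip3 had 16.1 and 12.7 CPM in TSC1 KO islets and 27.3 and 24.9 CPM in RC control islets. The groups did not overlap, and the log2 fold change of -0.85 ± 0.24 SE did not pass (adjusted p = 0.0553 by edgeR). It passed with library size only (0.0379) and with no filter (0.0340), with 0.301 as the highest value, without TSC1 KO replicate 2. Pdk1 had 13.8 and 22.7 CPM in TSC1 KO islets and 9.64 and 15.7 CPM in RC control islets, and these overlapped (adjusted p = 0.370 by edgeR).

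**Figure D4:**
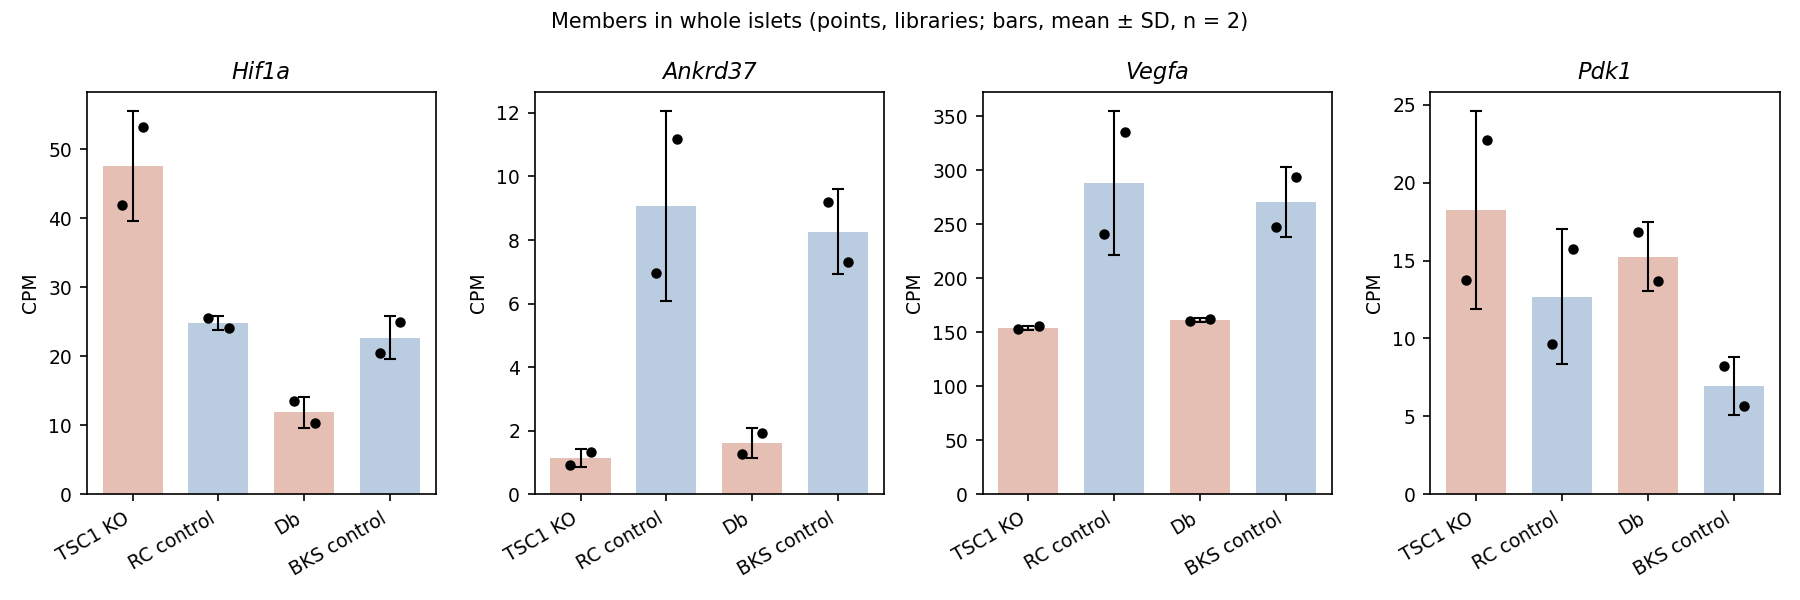
CPM of Hif1a, Ankrd37, Vegfa and Pdk1 in the 8 islet libraries. Points are libraries, bars are group means and whiskers are ± SD (n = 2), from axes that start at 0. Hif1a is above RC control in TSC1 KO islets and below BKS control in Db islets, and Ankrd37 is between 0.932 and 1.94 CPM in all TSC1 KO and Db libraries.

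Around these genes, the oxygen sensing machinery had 1 gene higher and 1 lower of 13 in edgeR's test. The background for this list and those below was 8.63% of all genes called higher and 10.0% lower. The coactivator Ep300 had 84.8 and 102 CPM in TSC1 KO islets against 42.2 and 53.4 CPM in RC control islets (log2 fold change 0.96 ± 0.22 SE, adjusted p = 0.0364 by edgeR), with the call lost by library size only (0.0816). Cited2 had 24.5 and 22.7 CPM in TSC1 KO islets against 61.6 and 53.0 CPM in RC control islets (log2 fold change -1.28 ± 0.20 SE, adjusted p = 0.0165 by edgeR). Vhl (0.29 ± 0.23), Egln2 (-0.12 ± 0.19), Hif1an (0.21 ± 0.25) and Arnt (0.28 ± 0.24; log2 fold changes ± SE) were not called.

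Of 27 other HIF targets tested, 1 rose and 2 fell. Slc2a1 had 34.5 and 41.1 CPM in TSC1 KO islets against 17.4 and 10.0 CPM in RC control islets, a 2.76-fold difference (log2 fold change 1.46 ± 0.31 SE, adjusted p = 0.0298 by edgeR). P4ha1 had 24.5 and 24.4 CPM in TSC1 KO islets against 64.0 and 57.7 CPM in RC control islets (log2 fold change -1.31 ± 0.19 SE, adjusted p = 0.0147 by edgeR). Tfrc was also lower (-0.94 ± 0.21, adjusted p = 0.0328 by edgeR; 0.0868 with DESeq2). Bnip3l (0.47 ± 0.23; 0.0478 without RC control replicate 1) and Ddit4 (0.33 ± 0.33; log2 fold changes ± SE) were not called. For the 12 glycolytic targets edgeR called 0, with 3 lower at an unadjusted p under 0.05, and DESeq2 called 1 lower and limma-voom 0.

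The VEGF family had 3 genes higher and 1 lower of 9 tested. The lymphatic growth factor Vegfc had 55.0 and 25.1 CPM in TSC1 KO islets against 7.11 and 2.65 CPM in RC control islets (log2 fold change 3.05 ± 0.60 SE, adjusted p = 0.0309 by edgeR; 0.0675 with no filter). Its log2 fold change was 3.93 without RC control replicate 1 and 2.36 without TSC1 KO replicate 1. Vegfd, of the same subfamily, had 22 and 32 counts in TSC1 KO islets against 4 and 2 counts in RC control islets (adjusted p = 0.0188 by edgeR). The coreceptor Nrp2 had 122 and 111 CPM in TSC1 KO islets against 29.2 and 36.2 CPM in RC control islets (log2 fold change 1.83 ± 0.22 SE, adjusted p = 0.0112 by edgeR). Vegfb was the one that fell (-0.92 ± 0.22, adjusted p = 0.0374 by edgeR; lost with DESeq2 at 0.114 and without RC control replicate 2 at 0.0502). The receptors of VEGF-A, Flt1 and Kdr, had overlapping levels: Flt1 616 and 422 CPM in TSC1 KO islets and 354 and 546 CPM in RC control islets, and Kdr 565 and 320 CPM in TSC1 KO islets and 326 and 551 CPM in RC control islets.

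The adrenomedullin receptor gene Calcrl was higher, at 52.7 and 73.9 CPM in TSC1 KO islets against 26.7 and 29.9 CPM in RC control islets (log2 fold change 1.157 ± 0.24 SE, adjusted p = 0.0273 by edgeR), 1 of 5 genes of that list tested. Ndrg3 was lower (-0.90 ± 0.20, adjusted p = 0.0328 by edgeR), the 1 gene called of 3 NDRG relatives. Of 7 genes of pyruvate dehydrogenase control edgeR, DESeq2 and limma-voom called 0 (1 higher and 1 lower at an unadjusted p under 0.05), Pdk2 (0.77 ± 0.28) and Pdk4 (-0.58 ± 0.22; log2 fold changes ± SE) among them.

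In Db islets, 1 of the 10 genes was higher (Pdk1) and 3 were lower (Ankrd37, Hif1a and Vegfa) than in BKS control islets, in edgeR's test. The background was high, with 24.3% of 14369 genes called higher and 23.9% lower, so counts of this size are near what all genes show. Egln3 and Adm had too few counts, and the 8 genes tested had a median log2 fold change of 0.03, against -0.03 over all genes tested. When only library size was used for scaling, the split of the 8 genes was 1 higher and 1 lower, and that of all genes 3983 higher and 1562 lower, against 3488 and 3431 with TMM. Insulin genes took 48.3% and 45.5% of counts in the Db libraries, against 61.0% and 70.0% in the BKS control libraries. Summed endothelial markers were 716 and 747 CPM in Db islets and 839 and 819 CPM in BKS control islets, with 4 of 10 markers higher, 3 lower and none at 0. Summed acinar markers were 287 and 128 CPM in Db islets and 25.3 and 21.6 CPM in BKS control islets, with 5 of 8 tested markers higher and 1 lower. Mesenchymal sums were 604 and 567 CPM in Db islets and 298 and 404 CPM in BKS control islets, with 6 of 9 tested markers higher and 1 lower. Duct sums were 747 and 712 CPM in Db islets and 293 and 290 CPM in BKS control islets, with 2 of 6 tested markers higher and 2 lower. The higher duct sums came from Krt7, at 681 and 638 CPM in Db islets and 200 and 188 CPM in BKS control islets. Spp1 went the other way, at 36.6 and 39.3 CPM in Db islets and 65.1 and 69.95 CPM in BKS control islets. Of 10 β-cell markers, 7 were lower and 1 higher. The part of these cells in the results below was not tested.

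Ankrd37 had the largest fold difference of the 8 genes tested. It had 1.27 and 1.94 CPM (23 and 40 counts) in Db islets against 9.21 and 7.32 CPM (86 and 57 counts) in BKS control islets. Both Db libraries were below both controls, and Ankrd37 was 5.11-fold lower (log2 fold change -2.35 ± 0.33 SE, n = 2 each, adjusted p = 1.64e-06 by edgeR). The call held under every alternative tried, with adjusted p from 1.36e-10 to 2.48e-05. Of its antisense neighbours, Lrp2bp had 1.60 and 1.99 CPM in Db islets against 4.50 and 3.72 CPM in BKS control islets and was lower (log2 fold change -1.19 ± 0.35 SE, adjusted p = 0.00680 by edgeR), while Ufsp2 was not called (-0.48 ± 0.24, adjusted p = 0.107 by edgeR).

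Pdk1 moved the other way. It had 16.8 and 13.7 CPM in Db islets against 8.25 and 5.65 CPM in BKS control islets, with both Db libraries above both controls. Pdk1 was 2.18-fold higher (log2 fold change 1.12 ± 0.26 SE, adjusted p = 0.000883 by edgeR), and this call too held under every alternative (2.39e-05 to 0.0144).

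Hif1a had 13.5 and 10.3 CPM in Db islets against 20.4 and 24.9 CPM in BKS control islets. Both Db libraries were below both controls, by 1.91-fold (log2 fold change -0.93 ± 0.23 SE, adjusted p = 0.00155 by edgeR). Without Db replicate 2 (0.0578) or with library size only (0.131) the call was lost. Its antisense neighbour Gm15283 had 3.32 and 2.86 CPM in Db islets against 4.28 and 5.39 CPM in BKS control islets and was not called (adjusted p = 0.0998 by edgeR). Epas1 had 107 and 93.0 CPM in Db islets and 71.7 and 99.5 CPM in BKS control islets, with overlap. It did not pass (log2 fold change 0.23 ± 0.21 SE, adjusted p = 0.375 by edgeR; 0.0364 without BKS control replicate 2 to 0.902 without BKS control replicate 1).

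Vegfa had 160 and 162 CPM in Db islets against 247 and 293 CPM in BKS control islets, and the groups did not overlap. It was 1.68-fold lower (log2 fold change -0.75 ± 0.20 SE, adjusted p = 0.00361 by edgeR). The call was lost without Db replicate 1 (0.0668) or 2 (0.0673) and with library size only (0.358). Among the genes that did not pass, Bnip3 had 10.1 and 8.77 CPM in Db islets and 10.5 in each BKS control library (adjusted p = 0.620 by edgeR), with a log2 fold change of -0.16 ± 0.25 SE that turned to 0.15 with library size only. Ndrg1 had 38.8 and 50.4 CPM in Db islets, against 34.4 and 34.5 CPM in BKS control islets (adjusted p = 0.137 by edgeR). Its antisense neighbour Gm17035 had 19.2 and 18.7 CPM in Db islets against 10.5 and 11.7 CPM in BKS control islets, so the Ndrg1 count is uncertain. Gm2895, the other antisense neighbour, had 1.33 and 3.20 CPM in Db islets against 1.285 and 1.155 CPM in BKS control islets. Egln1 had 28.2 and 29.2 CPM in Db islets and 22.5 and 26.1 CPM in BKS control islets (adjusted p = 0.346 by edgeR). Ndrg1 and Egln1 were both above the controls in each Db library without passing. Egln3 had 26 and 11 counts in Db islets, against 2 and 6 in BKS control islets. Adm had 5 and 3 counts in Db islets, against 1 and 2 in BKS control islets.

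Of 12 oxygen sensing genes tested in Db islets, 3 rose and 3 fell, which is near the background of 24.3% and 23.9% given above. Elob, an adaptor of the von Hippel-Lindau ligase, had 85.3 and 72.7 CPM in Db islets against 37.4 and 29.9 CPM in BKS control islets (log2 fold change 1.23 ± 0.21 SE), and its partner Eloc had 4.53 and 3.73 CPM in Db islets against 9.21 and 7.44 CPM in BKS control islets (-1.02 ± 0.29 SE; adjusted p = 2.10e-05 and 0.00469 by edgeR). The coactivator Crebbp (1.30 ± 0.23) and Arnt2 (0.90 ± 0.30) were higher, and the cullin scaffold Cul2 (-0.78 ± 0.29) was lower (adjusted p = 5.10e-05, 0.0156 and 0.0256 by edgeR). Cited2 had 29.2 and 35.7 CPM in Db islets against 71.2 and 93.6 CPM in BKS control islets (log2 fold change -1.34 ± 0.21 SE, adjusted p = 7.28e-06 by edgeR). Without Db replicate 2 the calls of Eloc (0.0801), Cul2 (0.245) and Arnt2 (0.280) were lost. Eloc (0.0974) and Cul2 (0.293) also lost theirs with library size only, Cul2 (0.0919) and Arnt2 (0.0586) with DESeq2, Cul2 (0.0849) and Arnt2 (0.0571) without BKS control replicate 1, and Cul2 with no filter (0.0614). Vhl (-0.11 ± 0.25), Egln2 (0.36 ± 0.20), Hif1an (0.37 ± 0.22) and Arnt (0.35 ± 0.22; log2 fold changes ± SE) were not called, although Egln2 (0.0298) and Hif1an (0.0187) passed without BKS control replicate 1.

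The other HIF targets were split, with 3 higher and 6 lower of 26 tested, which is no more than the background of 24.3% higher and 23.9% lower. P4ha2, a collagen prolyl hydroxylase subunit, had 42.6 and 48.2 CPM in Db islets against 9.21 and 10.1 CPM in BKS control islets (log2 fold change 2.23 ± 0.22 SE, adjusted p = 6.65e-09 by edgeR). The haem-degrading enzyme Hmox1 had 9.07 and 10.1 CPM in Db islets against 1.61 and 0.257 CPM in BKS control islets, the last being 2 counts (adjusted p = 9.64e-07 by edgeR). Tfrc had 2.27 and 2.04 CPM in Db islets against 13.5 and 15.5 CPM in BKS control islets (log2 fold change -2.75 ± 0.29 SE, adjusted p = 1.18e-08 by edgeR). Also past the test were Loxl2 (0.67 ± 0.20) above and the chemokine receptor Cxcr4 (-2.45 ± 0.45) and the lipase inhibitor Angptl4 (-2.28 ± 0.48) below the controls (adjusted p = 0.00720, 8.84e-05 and 0.000314 by edgeR). Loxl2 lost its call without Db replicate 2 (0.0889), and the fold change of Cxcr4 was -3.44 without Db replicate 2. Slc2a1 (0.19 ± 0.25), Bnip3l (-0.30 ± 0.26), Ddit4 (0.17 ± 0.52) and P4ha1 (0.27 ± 0.21; log2 fold changes ± SE) were not called. Without BKS control replicate 2 Ddit4 passed (log2 fold change 1.09, adjusted p = 9.31e-06 by edgeR), and without BKS control replicate 1 it was -0.36.

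Of 12 glycolytic HIF targets, 5 rose and 0 fell by edgeR in Db islets, against 24.3% and 23.9% of all genes. At an unadjusted p under 0.05, 1 was lower, and DESeq2 called 0 and limma-voom 1 lower. Aldoa, an aldolase, had 350 and 352 CPM in Db islets against 142 and 111 CPM in BKS control islets (log2 fold change 1.47 ± 0.21 SE, adjusted p = 2.42e-06 by edgeR). Eno1, an enolase, had 64.5 and 62.6 CPM in Db islets against 25.2 and 19.8 CPM in BKS control islets (1.497 ± 0.21 SE), and Gpi1, the glucose phosphate isomerase, had 118 and 119 CPM in Db islets against 55.4 and 48.4 CPM in BKS control islets (1.19 ± 0.20 SE; adjusted p = 1.65e-06 and 2.12e-05 by edgeR). Glycolytic genes have many processed copies in the genome, so their counts are uncertain. The list's median was 0.28 on the log2 scale, against -0.03 over all genes tested.

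The VEGF list had 4 genes lower and 0 higher of 8 tested by edgeR in Db islets, against 23.9% and 24.3% of all genes. At an unadjusted p under 0.05, 1 was higher, and DESeq2 and limma-voom called 0 higher. Flt1 had 54.5 and 47.6 CPM in Db islets against 133 and 95.9 CPM in BKS control islets (log2 fold change -1.17 ± 0.21 SE), and Kdr had 43.9 and 42.6 CPM in Db islets against 78.9 and 88.9 CPM in BKS control islets (-0.96 ± 0.20 SE; adjusted p = 4.63e-05 and 0.000263 by edgeR, the second 0.113 with library size only). The coreceptor Nrp1 had 18.5 and 16.1 CPM in Db islets against 86.1 and 60.5 CPM in BKS control islets (-2.09 ± 0.22 SE), and the ligand Vegfb was lower too (-1.53 ± 0.20 SE; adjusted p = 1.28e-08 and 8.58e-07 by edgeR). Single endothelial markers differed in direction, with 4 of 10 called higher and 3 lower. Emcn had 5.25 and 4.41 CPM in Db islets against 38.3 and 29.7 CPM in BKS control islets. Plvap had 387 and 365 CPM in Db islets against 511 and 489 CPM in BKS control islets. Eng had 128 and 149 CPM in Db islets against 87.0 and 96.4 CPM in BKS control islets (all named after their values were seen). Their part in the VEGF receptor values was not tested.

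Among 6 adrenomedullin relatives, 2 rose and 2 fell in Db islets, against 24.3% and 23.9% of all genes. The peptide gene Adm2 had 34 and 33 counts in Db islets against 1 and 0 in BKS control islets (adjusted p = 7.38e-05 by edgeR), too few control reads for a fold. Calcrl had 1.44 and 1.02 CPM in Db islets against 6.53 and 7.32 CPM in BKS control islets (log2 fold change -2.49 ± 0.35 SE, adjusted p = 1.52e-06 by edgeR). The receptor partner Ramp3 (0.93 ± 0.27) was higher and the scavenger receptor Ackr3 (-1.17 ± 0.35) lower (adjusted p = 0.00592 and 0.00720 by edgeR), each losing its call without BKS control replicate 2 (0.0759 and 0.316), Ackr3 also with library size only (0.0873). Without that library the log2 fold change of Ackr3 was -0.49.

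In the control of pyruvate dehydrogenase, 1 of 7 genes rose and 2 fell in Db islets besides Pdk1, against 24.3% and 23.9% of all genes. The kinase Pdk2 had 22.2 and 28.0 CPM in Db islets against 18.5 and 15.9 CPM in BKS control islets (log2 fold change 0.54 ± 0.22 SE, adjusted p = 0.0428 by edgeR), a call lost with DESeq2 (0.0881) and limma-voom (0.0521) and without BKS control replicate 2 (0.106) or Db replicate 2 (0.331). Pdhb, a subunit of the enzyme itself, and the phosphatase Pdp1 were lower (-0.91 ± 0.23 and -1.14 ± 0.36; adjusted p = 0.00193 and 0.00947 by edgeR). Both lost their calls with library size only (0.132 and 0.0845) and without Db replicate 2 (0.0928 and 0.224), and Pdp1 with DESeq2 (0.0566). Pdk4 had 0.940 and 0.679 CPM in Db islets against 0.643 and 3.34 CPM in BKS control islets and was not called. Without BKS control replicate 1 it was called lower (log2 fold change -2.02, adjusted p = 0.000440 by edgeR), and without BKS control replicate 2 the fold change was 0.35. Of the NDRG relatives, Ndrg4 had 33.6 and 34.3 CPM in Db islets against 9.64 and 5.26 CPM in BKS control islets (log2 fold change 2.17 ± 0.25 SE), and Ndrg3 was lower (-1.10 ± 0.22 SE; adjusted p = 1.18e-07 and 0.000143 by edgeR).

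**Figure D5:**
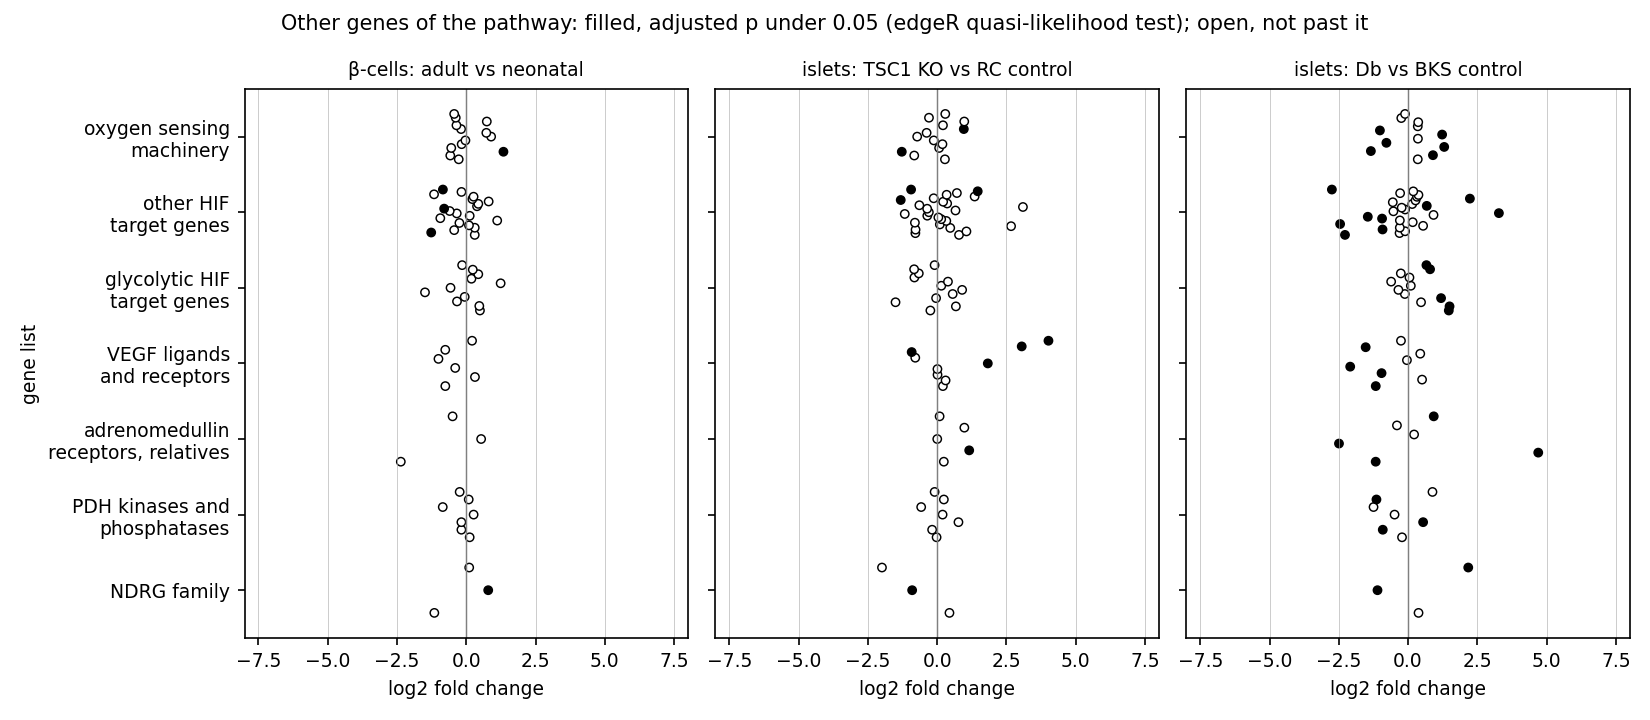
Log2 fold changes of other genes of the pathway in the 3 comparisons, first group over second, by list. Each point is a gene, spread up and down so that points can be told apart, and filled points have an adjusted p under 0.05 in edgeR's quasi-likelihood test. The 5 filled glycolytic genes in Db islets lie to the right of 0 and the 4 filled VEGF genes to the left. Over all genes, 24.3% were called higher and 23.9% lower in Db islets.

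Whether the TSC1 KO effect differed from the Db effect was tested in 1 edgeR fit over the 8 islet libraries. Hif1a was the one gene of the 10 for which the difference passed, at 1.78 ± 0.33 SE on the log2 scale (adjusted p = 0.00170 by edgeR). In the separate fits its effect was 0.93 in TSC1 KO islets and -0.93 in Db islets, and adjusted p over all alternatives ran from 2.35e-05 to 0.0178. The uncertainty from the overlap with Gm15283 applies here too. All 10 genes were tested, of which 1 was called with a positive difference and 0 with a negative one, against 13.2% and 18.6% of 15702 genes. At an unadjusted p under 0.05, 1 of the 10 was negative, and limma-voom also called 1 positive and 0 negative. Ankrd37 had a difference of -0.75 ± 0.64 SE (adjusted p = 0.392 by edgeR), Vegfa of -0.25 ± 0.33 (0.595) and Bnip3 of -0.78 ± 0.34 (0.0983; 0.0380 with library size only). Pdk1, called in Db islets and not in TSC1 KO islets, had a difference of -0.71 ± 0.46 SE, which did not pass (adjusted p = 0.256 by edgeR; 0.0476 without RC control replicate 1 to 0.591). For Ndrg1, called in TSC1 KO islets and not in Db islets, the difference was 0.58 ± 0.30 (0.161), and for Egln3 it was 2.14 ± 1.20 (0.195; 0.0171 without RC control replicate 1 to 0.718). The models also differ in age and table, so genotype and these cannot be told apart.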

How the data were processed

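RNA was sequenced from β-cells and whole islets, and the authors deposited raw read counts per Ensembl gene in 3 tables. Per the labels' protocols, Trizol was used for extraction and the SMARTer Stranded kit for libraries. The submitters' processing notes list HTSeq 0.7.1, DESeq2 1.16.0, cutadapt 1.13 and GSNAP, and name both NCBIM37 and mm9 without saying how each build was used. Whether counting used strand is not stated, which leaves overlapping genes uncertain. Library sizes were summed over gene rows only, which hold 24.5% to 43.1% of reads in the β-cell table and 35.1% to 44.3% in the table of Db islets, while the table of TSC1 KO islets has no other rows. Symbols matched 32620 of 37310 identifiers (87.4%).

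Each table was fitted alone with edgeR 4.0.16 in R 4.3.3 (quasi-likelihood F test, two-sided, filterByExpr with a minimum count of 10 and minimum total of 15, TMM, Benjamini-Hochberg over all genes tested, threshold 0.05), and the fits gave fold changes with standard errors. The steps were tested on simulated data. CPM per kilobase uses the union of exons in GENCODE. Alternatives were DESeq2 1.42.0, limma-voom (limma 3.58.1), other scalings and filters, a replicate block and leaving out each library. The genes, lists and tests were chosen with earlier results of these data known. Named are all 10 genes, a set of 12 pathway genes whatever they did, and up to 3 called genes per list and direction with the lowest adjusted p. Genes that overlap one of the 10 were added after values had been seen. Floors of 3 counts cover counting error only, because several reads can come from 1 molecule.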

Additional observations from a re-analysis of the deposited data

Results flagged for a closer look

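The effect of the TSC1 KO label on Hif1a differed from the effect of the Db label by 1.78 on the log2 scale (SE 0.33, adjusted p = 0.00170, edgeR's interaction test over 8 islet libraries). It was flagged because Hif1a differed from controls in opposite directions under the 2 labels. Both TSC1 KO libraries were above their controls (41.9 and 53.2 CPM against 25.6 and 24.1). Both Db libraries were below theirs (13.5 and 10.3 CPM against 20.4 and 24.9). Of 15702 genes tested, 13.2% were called with a positive and 18.6% with a negative difference, so such a call is common. The models also differ in age and table, which cannot be told apart from genotype. Hif1a lost its TSC1 KO call with DESeq2 (adjusted p = 0.0548) and with library size only (0.0788 by edgeR). The TSC1 KO libraries also have far lower β-cell marker sums and higher endothelial sums than their controls, and the part of these in the difference was not tested. Hif1a overlaps Gm15283 on the other strand and the strand setting is not given, so its count is uncertain. Gm15283 had 3.26 and 6.35 CPM in TSC1 KO islets against 1.74 and 3.53 CPM in RC control islets, and 3.32 and 2.86 CPM in Db islets against 4.28 and 5.39 CPM in BKS control islets.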

How the results depend on the processing

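Of the alternative fits of single hypoxia response genes, 425 kept direction and side of the threshold, 13 gained a call, 22 lost one and 13 changed sign, and of those of named pathway genes (alternatives chosen after seeing the data) 808, 5, 69 and 35 did so. Every sign change was of a gene that was not called, and the cause was not tested. Genes called between adult and neonatal β-cells were 999 (1576 with DESeq2, 405 to 1380 with 1 library left out), of which 1 was a hypoxia response gene (2 with library size only, 0 to 2 with 1 library left out). Between TSC1 KO and RC control islets 2703 genes were called (0 to 4015 with 1 library left out), 4 of them hypoxia response genes (0 to 5). Between Db and BKS control islets 6919 were called (4419 to 6666 with 1 library left out), 4 of them hypoxia response genes (2 with library size only, 2 to 5 with 1 library left out). The difference between the islet models was called for 1 of the 10 genes (2 with library size only, 1 to 3 with 1 library left out). With 1 library left in an islet group, that library is assumed to vary like the others.

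The replicate numbers of the islet libraries do not pair them by design, and deviations of same-numbered libraries did not go together (correlation over genes -0.05 and -0.04). With a replicate block 1648 genes and 1 of the hypoxia response genes (Ankrd37) were called for TSC1 KO, and the block did not move the counts for Db by over 1.5 times. The β-cell columns carry number 3 on a pair of columns and could not be blocked.

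Library size alone moves the median log2 fold change of all genes to -0.19 for adult β-cells, -0.25 for TSC1 KO, 0.29 for Db and -0.47 for the difference between models, and fold changes under TMM are relative to such a shift. With library size only, signs changed to -0.067 for Ddit4 in adult β-cells, to -0.028, -0.042 and -0.21 for Flt1, Hif1an and Kdr in TSC1 KO islets, to 0.15, 0.017 and 0.19 for Bnip3, Bnip3l and Vhl in Db islets and to -0.45 for the difference of Egln1 (-0.078 with no filter). With limma-voom they changed to -0.89, -0.59, 0.041 and 0.81 for Epas1, Kdr, Pdk2 and Pdk4 in adult β-cells and to -0.015 for Kdr in TSC1 KO islets, where no filter gave -0.024 and leaving out mitochondrial and insulin genes -0.00110.

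With 1 library left out, log2 fold changes between the ages crossed 0 for Hif1a (-0.0991 to 0.088), Epas1 (-1.004 to 0.93), Ankrd37 (-0.14 to 1.15), Arnt (-0.44 to 0.015), Bnip3l (-0.00041 to 0.50), Ddit4 (-0.10 to 0.26), Egln2 (-0.16 to 0.052), Flt1 (-2.66 to 1.29), Kdr (-1.87 to 1.14), Pdk2 (-0.60 to 0.26), Pdk4 (-1.60 to 0.52) and Slc2a1 (-0.45 to 0.32). For TSC1 KO they crossed 0 for Ddit4 (-0.17 to 0.69), Flt1 (-0.10 to 0.55), Hif1an (-0.033 to 0.50) and Kdr (-0.47 to 0.44). For Db they did so for Ddit4 (-0.36 to 1.09), Pdk4 (-2.02 to 0.35) and Vhl (-0.16 to 0.013), and for the difference between models for Egln1 (-0.28 to 0.16) and Adm (-0.22 to 0.99). Depth limits Ankrd37, Egln3 and Adm most, which had as few as 4, 2 and 9 counts in a library of the TSC1 KO table.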
